A study of Mus musculus with 51 samples.

Results

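Selp, Sele and Selplg encode P-selectin, E-selectin and the P-selectin glycoprotein ligand, and they made up 3 of the 18193 genes and 5 of the 34945 single-gene probe sets measured here. All probe sets annotated to them were taken: 3 for Selp (gene 20344, chromosome 1), 1 for Sele (gene 20339, chromosome 1) and 1 for Selplg (gene 20345, chromosome 5). The genes were chosen by their log2 levels across the 8 groups of these same samples, so their own values are given as a description, without a test. The series measured total RNA of 4 populations of blood-forming cells, sorted by flow cytometry from the bone marrow of Mll-AF9 knock-in and wild-type mice, on 51 arrays. Its stated purpose was to compare each Mll-AF9 cell type with the same cell type of wild-type mice. The knock-in allele joins Mll, which encodes a histone methyltransferase, to Af9, a fusion known from human acute leukaemia.

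Repeat arrays of a CMP replicate were averaged, which left 43 replicates. There were 4 Mll-AF9 and 5 wild-type replicates of granulocyte-macrophage progenitors (GMP), 4 Mll-AF9 and 5 wild-type replicates of common myeloid progenitors (CMP), 7 Mll-AF9 and 8 wild-type replicates of common lymphoid progenitors (CLP), and 5 Mll-AF9 and 5 wild-type replicates of haematopoietic stem cells (HSC). The mice were untreated as far as the labels say. Age, sex, strain and zygosity of the mice were not stated in the sources used here. Nor were replicates said to be separate mice, so the p-values reflect a spread among samples that could be technical. Groups follow the titles, but all 7 Mll-AF9 CLP samples and replicate 1 of wild-type CLP carry the source name of CMP.

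The selectins are calcium-dependent lectins that let blood cells tether to and roll along a vessel wall. P-selectin is stored in granules of platelets and endothelial cells and reaches their surface on activation, E-selectin is made by endothelium and is known in bone marrow as a niche molecule for stem cells, and PSGL-1, the product of Selplg, is a mucin of leukocytes that binds them once it is fucosylated, sialylated and sulphated.

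The levels are log2 RMA intensities. A level above 4.46, the upper end of receptor and keratin-associated genes that blood cells should not use, was taken as above background. Levels of different probe sets are not comparable, so each is read across samples only. In sorted populations, fewer cells that carry a transcript and less RNA per cell cannot be told apart.

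The samples were set against their titles before the genes were read. Mpo, the granule peroxidase of GMP, averaged 13.66 in Mll-AF9 GMP and 13.70 in wild-type GMP, and 10.62 and 10.86 in the CMP groups. Klf1, an erythroid factor, stood at 11.31 in Mll-AF9 CMP and 11.38 in wild-type CMP, against 5.10 to 8.90 in the replicates titled CLP. Cd34, a progenitor sialomucin, averaged 7.27 in Mll-AF9 CMP and 7.08 in wild-type CMP. In wild-type GMP and wild-type HSC it averaged 8.70 and 9.86. So Klf1 set the CMP samples apart from those titled CLP, but whether they match the title CMP was not settled by these genes. Il7r, the interleukin-7 receptor chain, averaged 9.49 in Mll-AF9 CLP, 9.54 in wild-type CLP, 3.47 in Mll-AF9 HSC and 5.05 in wild-type HSC. The stem cell receptor Procr did not separate those titles, with means of 8.58 in wild-type CLP and 8.56 in wild-type HSC, and only 8 of 18193 genes were called between them (limma, Benjamini-Hochberg adjusted p below 0.05). The mean profiles of these groups correlated at 0.992 over genes, so the wild-type samples titled CLP and HSC lie close together. No Mll-AF9 replicate had a signal of Y-linked genes, whereas such a signal was present in wild type in 2 of 5 HSC, 6 of 8 CLP, 3 of 5 CMP and 3 of 5 GMP replicates, so genotype overlaps with the sex of the mice.

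Selp was above background in 43 of 43 replicates on probe set 1420558_at, 34 on 1440173_x_at and 33 on 1449906_at, and Sele in 0. The windows upstream of these selectin genes, which lie near each other on chromosome 1, are shown because of that contrast. Each is the 250 bases before the gene's start on the plus strand of GRCm38.p6, from RefSeq, at chr1:164115014-164115263 for Selp and chr1:164047984-164048233 for Sele, 5′ to 3′. Capitals mark matches on either strand to the GATA-type core GATAA, to the ETS-type core AGGAA and to TATAA, the core of the TATA box. A search for the Hox-Pbx type motif TGATTNAT found no match in either window.
Selp: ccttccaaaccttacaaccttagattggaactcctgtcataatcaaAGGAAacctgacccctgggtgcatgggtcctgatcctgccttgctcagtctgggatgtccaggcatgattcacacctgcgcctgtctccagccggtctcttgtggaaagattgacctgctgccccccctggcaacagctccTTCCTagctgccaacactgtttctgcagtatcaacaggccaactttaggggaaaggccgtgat
Sele: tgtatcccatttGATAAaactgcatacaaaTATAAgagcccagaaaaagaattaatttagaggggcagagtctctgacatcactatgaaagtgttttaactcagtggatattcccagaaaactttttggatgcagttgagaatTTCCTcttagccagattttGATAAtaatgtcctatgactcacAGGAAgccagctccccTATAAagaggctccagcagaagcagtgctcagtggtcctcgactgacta

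The Selp window held AGGAA at 204 bases before the start and, on the opposite strand, at 63 bases, with no GATAA or TATAA. The Sele window held GATAA at 238 and 88 bases, AGGAA at 65 and, on the opposite strand, at 107 bases, and TATAA at 220 and 49 bases. Among 32851 promoter windows of this length, 60.3% held AGGAA, 22.6% GATAA, 22.8% TATAA and 2.82% TGATTNAT. The motifs were chosen after these sequences were seen, and a match describes letters, not binding. Selplg has no promoter entry in the tables used.

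**Figure D1:**
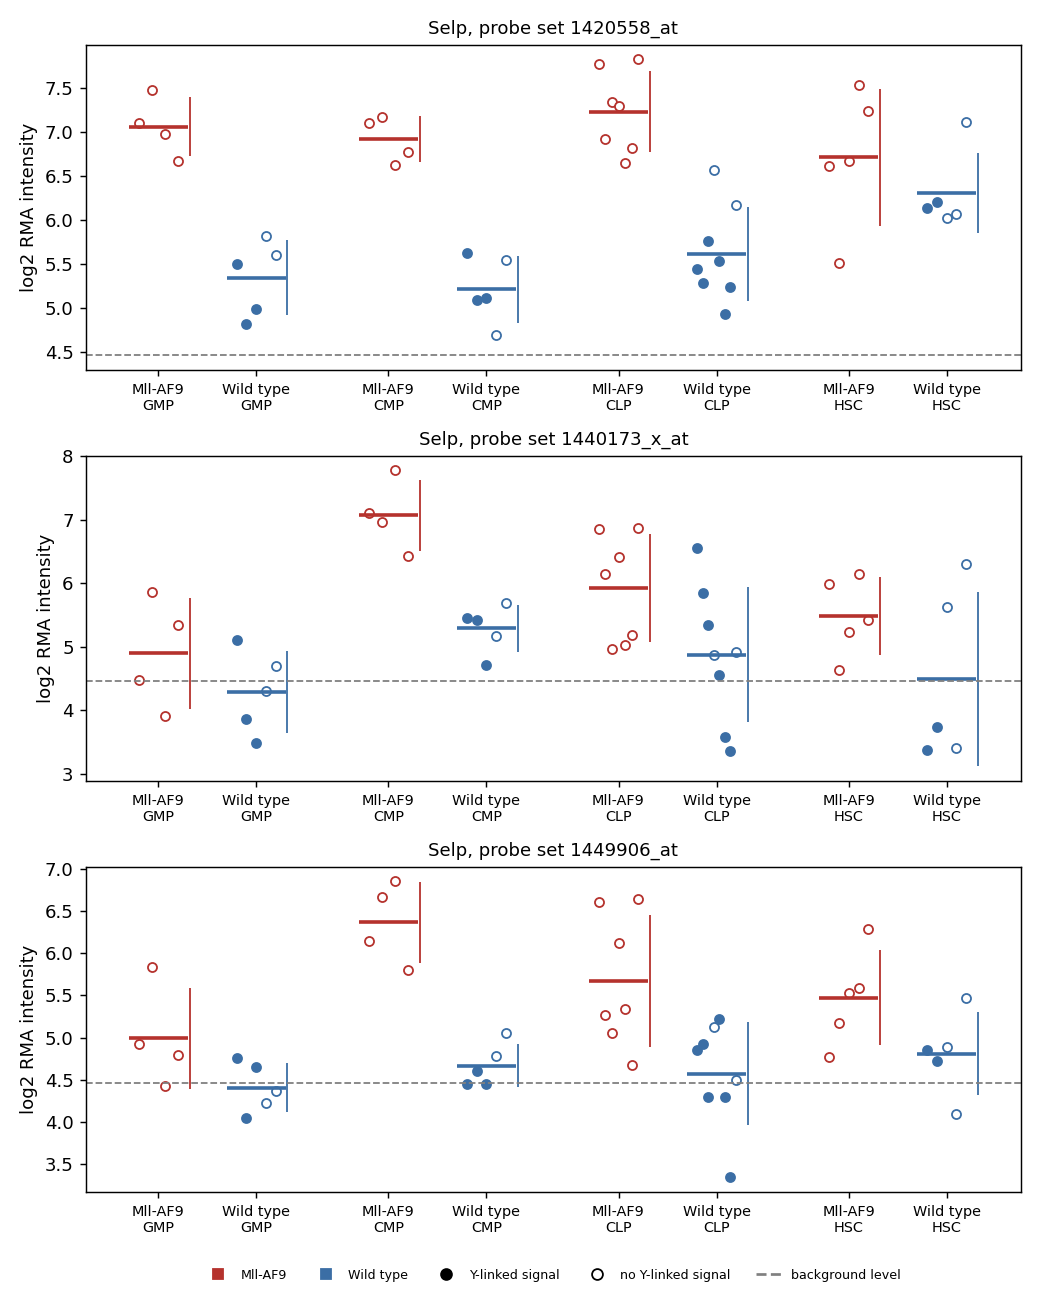
Log2 RMA intensity of the 3 Selp probe sets by group, 1 point per replicate, with the mean (horizontal bar) and SD (vertical line), closed points for replicates with Y-linked signal, and the background level dashed. On 1420558_at the Mll-AF9 points lie above all wild-type points in GMP, CMP and CLP and overlap them in HSC.

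P-selectin RNA lay higher in Mll-AF9 than in wild-type GMP, CMP and CLP, and less clearly so in HSC. On 1420558_at, whose mean level was the highest of the 3 Selp probe sets, the difference came to 1.72 ± 0.23 (SE) in GMP, 1.70 ± 0.19 in CMP and 1.62 ± 0.25 in CLP in log2 units, folds of 3.29, 3.26 and 3.07. In HSC it came to 0.40 ± 0.36. On that probe set wild-type HSC had the highest mean of the wild-type groups, and all 4 Mll-AF9 means lay above it.

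In GMP, Selp 1420558_at stood at 7.11, 7.48, 6.98 and 6.68 in Mll-AF9 replicates 1 to 4. It stood at 5.50, 4.82, 4.99, 5.82 and 5.61 in wild-type GMP replicates 1 to 5. Every Mll-AF9 GMP replicate lay above every wild-type one, as 1.84% of all named probe sets did in this comparison. In CMP the same probe set gave 7.10, 7.17, 6.63 and 6.77 in Mll-AF9 and 5.62, 5.09, 5.12, 4.69 and 5.55 in wild type. Again the groups did not overlap, with a share of 1.13% over all probe sets. In CLP it ran from 6.65 through a median of 7.30 to 7.83 in Mll-AF9, and from 4.93 through 5.49 to 6.57 in wild type. The lowest Mll-AF9 CLP replicate stood just above the highest wild-type one, a separation that 0.12% of probe sets showed. In HSC it gave 6.61, 5.51, 6.67, 7.53 and 7.24 in Mll-AF9 and 6.14, 6.21, 6.02, 6.07 and 7.12 in wild type. Those groups overlapped, since Mll-AF9 HSC replicate 2 was the lowest and wild-type HSC replicate 5 stood among the high Mll-AF9 values (0.647% of probe sets did not overlap upward). Without Mll-AF9 HSC replicate 2 the HSC difference came to 0.70, without wild-type HSC replicate 5 to 0.60, and without Mll-AF9 HSC replicates 4 and 5 to 0.20 and 0.27.

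The order of group means on 1420558_at was Mll-AF9 CLP (7.23), GMP (7.06), CMP (6.92) and HSC (6.71), then wild-type HSC (6.31), CLP (5.62), GMP (5.34) and CMP (5.21). The widest step, 0.69 between wild-type HSC and wild-type CLP, exceeded the pooled SD of 0.50, and each other pair of neighbours differed by less than its pooled SD. Relative to wild-type HSC, Selp 1420558_at differed by −0.97 ± 0.26 in wild-type GMP, −1.10 ± 0.24 in wild-type CMP and −0.69 ± 0.28 in wild-type CLP. Wild-type GMP and CMP lay wholly below wild-type HSC, as 9.26% and 7.94% of probe sets did, and CLP overlapped it. These differences and the HSC genotype difference share the wild-type HSC samples.

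The other Selp probe sets gave positive genotype differences too, of other sizes. On 1440173_x_at, whose suffix marks probes that may match more than 1 transcript, Mll-AF9 CMP had 7.11, 6.96, 7.78 and 6.43, against 5.46, 5.42, 4.72, 5.17 and 5.69 in wild-type CMP. The groups did not overlap, and the difference was 1.78 ± 0.25. On 1449906_at, Mll-AF9 CMP had 6.14, 6.66, 6.85 and 5.81, against 4.45, 4.61, 4.45, 4.78 and 5.06 in wild-type CMP. That difference was 1.69 ± 0.21, again without overlap.

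In the other populations these probe sets overlapped between genotypes and lay near background in wild type. On 1440173_x_at the differences were 0.60 ± 0.37 in GMP (at least 1.19-fold, the wild-type mean being below background), 1.05 ± 0.44 in CLP and 1.00 ± 0.53 in HSC. On 1449906_at they were 0.58 ± 0.24 in GMP (at least 1.35-fold), 1.10 ± 0.32 in CLP and 0.66 ± 0.31 in HSC. Mll-AF9 CMP had the highest mean on both, at 7.07 and 6.37, and not Mll-AF9 CLP. Relative to wild-type HSC, 1440173_x_at differed by −0.20 ± 0.52 in wild-type GMP, 0.81 ± 0.50 in wild-type CMP and 0.39 ± 0.56 in wild-type CLP, and 1449906_at by −0.40 ± 0.23, −0.14 ± 0.22 and −0.24 ± 0.29. So the order of wild-type populations on 1420558_at was repeated on neither, although wild-type HSC had the highest wild-type mean on 1449906_at too. Selp was above background in 43 of 43 replicates on 1420558_at, 34 on 1440173_x_at and 33 on 1449906_at. Over the 43 replicates, which share genotype and population, 1420558_at correlated at 0.52 with 1440173_x_at and 0.70 with 1449906_at, and the last pair at 0.78. As deviations from group means these correlations were 0.47, 0.51 and 0.63.

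**Figure D2:**
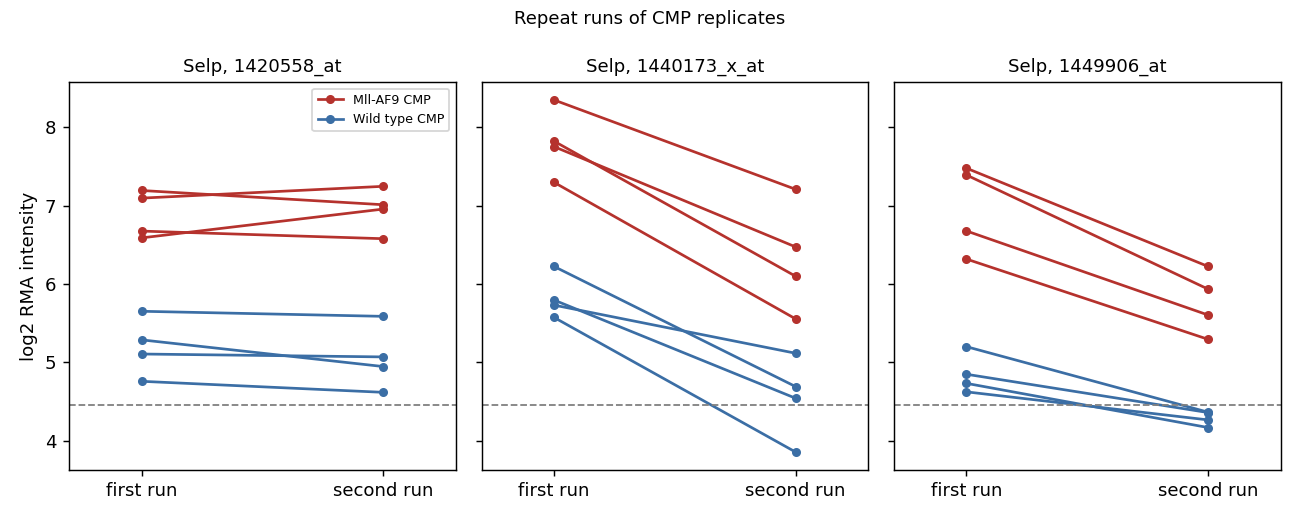
Log2 RMA intensity of the 3 Selp probe sets in the first and second run of each CMP replicate that was run again, 1 line per replicate, with the background level dashed. The lines are near level on 1420558_at and drop on the other probe sets in both genotypes.

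These other probe sets changed between repeat runs of the same CMP replicate. The second run minus the first averaged −1.47 in Mll-AF9 CMP and −1.28 in wild-type CMP on 1440173_x_at, and −1.20 and −0.56 on 1449906_at (4 replicates each). On 1420558_at it averaged 0.06 in Mll-AF9 CMP and −0.15 in wild-type CMP. The CMP difference on 1449906_at was 2.07 in the first run alone and 1.32 in the second, so its size depends on the run while its direction did not.

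On 1420558_at, Selp stood lower in wild-type GMP and CLP replicates with Y-linked signal than in those without. Among wild-type CLP, 1420558_at was 4.93 to 5.76 in the 6 replicates with that signal and 6.17 and 6.57 in the 2 without it, against 6.65 to 7.83 in Mll-AF9 CLP. Among wild-type GMP it was 4.82 to 5.50 in the 3 with it and 5.61 and 5.82 in the 2 without. The other probe sets did not all split that way, since 1449906_at in wild-type GMP averaged 4.48 with the signal and 4.30 without, and 1440173_x_at in wild-type CLP 4.87 and 4.89. In wild-type HSC 1440173_x_at averaged 3.55 with it and 5.11 without. On 1420558_at over replicates without Y-linked signal only, chosen after seeing the data, the genotype difference came to 0.31 ± 0.44 in HSC, 1.35 ± 0.22 in GMP, 1.80 ± 0.27 in CMP and 0.87 ± 0.35 in CLP. Mll-AF9 replicates still lay above the 2 remaining wild-type ones in each of GMP, CMP and CLP, in CLP with 6.65 against 6.57. With 2 wild-type replicates such a separation is met more easily, and its share over all probe sets was not counted. In CLP the difference was smaller than over all replicates, and the part of the sex of the mice in it was not tested further.

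**Figure D3:**
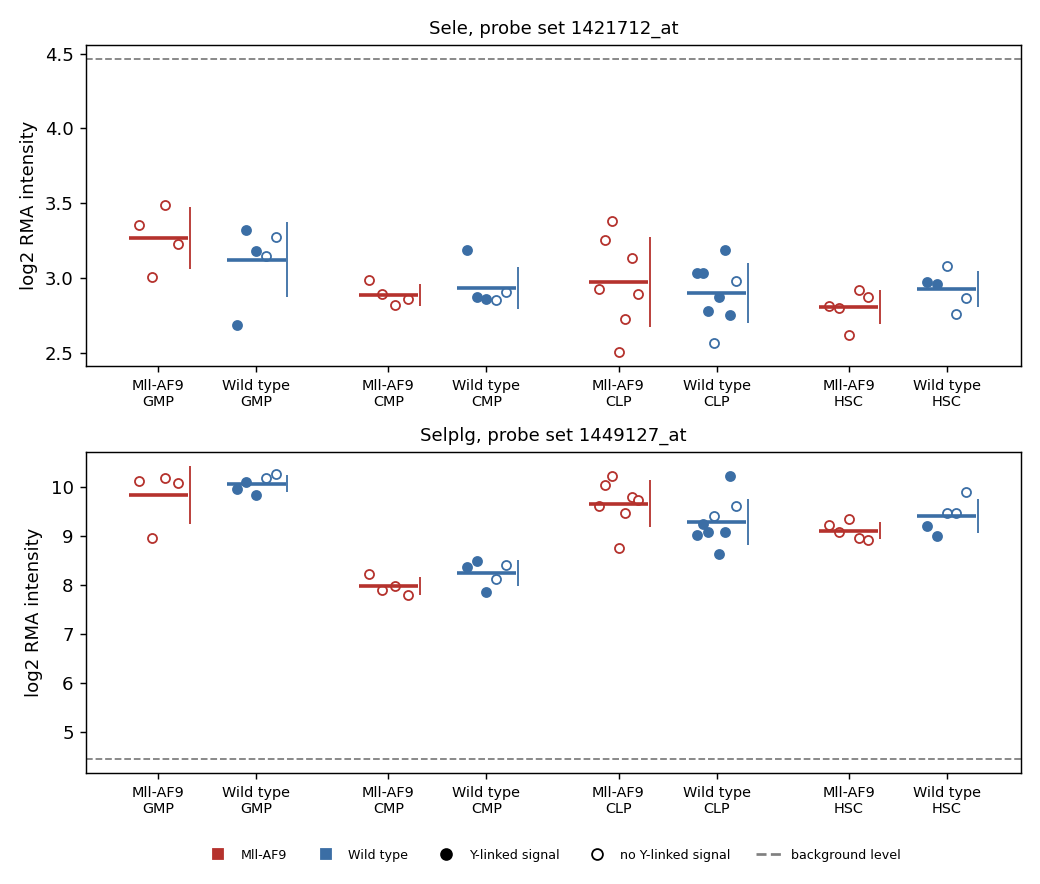
Log2 RMA intensity of Sele and Selplg by group, drawn as for Selp. All Sele points lie below the dashed background level, and Selplg lies above it throughout and is lowest in the CMP groups.

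E-selectin RNA was not detected above background. Sele 1421712_at lay between 2.51 and 3.49 over all 43 replicates, with 0 above 4.46. Genotype differences were −0.12 in HSC, 0.15 in GMP, −0.05 in CMP and 0.07 in CLP. Values below background carry no order, so these are given for completeness.

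PSGL-1 RNA was bright in every replicate, from 7.80 to 10.26, and varied with the population more than with the genotype. In GMP, Selplg 1449127_at had 10.12, 8.96, 10.18 and 10.07 in Mll-AF9 and 9.95, 10.10, 9.83, 10.19 and 10.26 in wild type. In CMP it had 8.22, 7.91, 7.99 and 7.80 in Mll-AF9 and 8.36, 8.48, 7.85, 8.12 and 8.40 in wild type. Both CMP groups lay below every replicate of the other populations, and the genotypes overlapped in GMP and in CMP. Between wild-type CMP and wild-type HSC, 7.94% of all named probe sets were separated that way, and other shares were not counted. The second CMP run minus the first averaged −0.51 in wild type and −0.40 in Mll-AF9 (4 replicates each). In the first run wild-type CMP reached 8.61, against 8.64 in the lowest wild-type CLP replicate. In CLP, Selplg ran from 8.75 through 9.72 to 10.21 in Mll-AF9 and from 8.64 through 9.16 to 10.21 in wild type. In HSC it had 9.23, 9.09, 9.35, 8.96 and 8.91 in Mll-AF9 and 9.20, 9.00, 9.47, 9.46 and 9.90 in wild type. Here too the genotypes overlapped.

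The Selplg difference, Mll-AF9 minus wild type, was −0.30 ± 0.21 in HSC, −0.23 ± 0.22 in GMP, −0.27 ± 0.15 in CMP and 0.37 ± 0.23 in CLP. With the Y-linked level as a covariate the CLP value came to 0.09, and with the difference between 3′ and 5′ control probe sets, a measure of RNA quality, to 0.61. The GMP value rests on Mll-AF9 GMP replicate 2, and without it came to 0.06. Group means descended from wild-type GMP (10.06) and Mll-AF9 GMP (9.83) through Mll-AF9 CLP (9.66), wild-type HSC (9.40), wild-type CLP (9.28) and Mll-AF9 HSC (9.11) to wild-type CMP (8.24) and Mll-AF9 CMP (7.98). The step of 0.86 between Mll-AF9 HSC and wild-type CMP was wider than the pooled SD of 0.22. The final step, 0.27 between the CMP groups, compares with a pooled SD of 0.22, and every other step was smaller than its pooled SD. CMP values were deposited with more decimals than the others and may have been processed apart, so levels set between CMP and other populations depend on that. Relative to wild-type HSC, Selplg differed by 0.66 ± 0.19 in wild-type GMP, −1.16 ± 0.19 in wild-type CMP and −0.12 ± 0.23 in wild-type CLP.

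**Figure D4:**
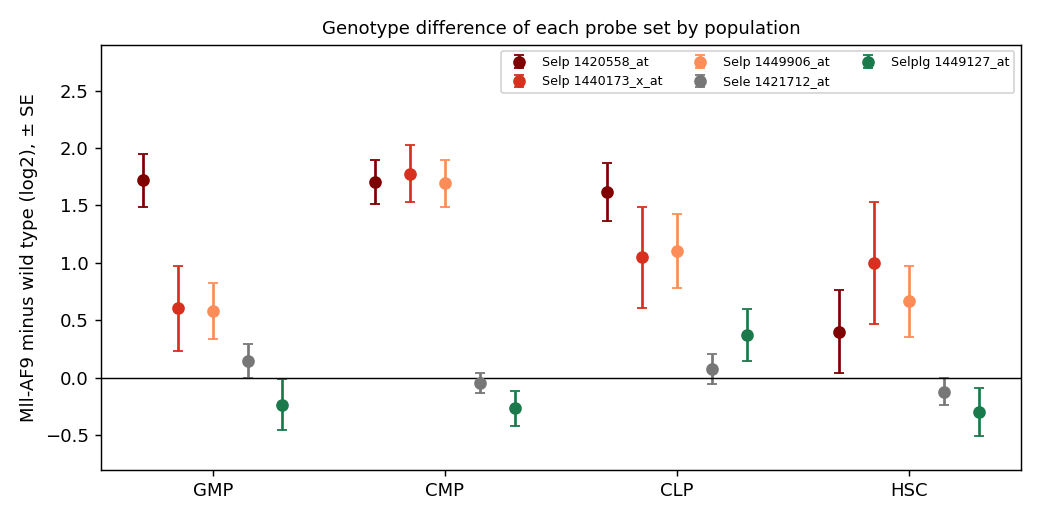
Log2 difference, Mll-AF9 minus wild type, with its SE, for each probe set of Selp, Sele and Selplg in the 4 populations. Selp lies above 0 at all 12 points, and Sele and Selplg lie between −0.30 and 0.37.

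Over the 43 replicates Selp 1420558_at and Selplg were nearly unrelated (Pearson r 0.10), whereas r was −0.43 on 1440173_x_at and −0.40 on 1449906_at. As deviations from group means these values were 0.04, −0.13 and −0.46. The 6 genes whose levels were most like Selp were Bpifc (0.74), the X-inactivation transcript Xist (0.70), Skida1 (0.68), Ly6k (0.65), the stem cell transcription factor gene Mecom (0.65) and Lypd6b (0.62). The genes most like Selplg were the tyrosine kinase Fes (0.90), the small GTPase Rac2 (0.89), Acot7 (0.89), Napsa (0.88), Arhgdib (0.88) and the ezrin-binding scaffold Slc9a3r1 (0.88). These were ranked on 1420558_at for Selp, among genes above background, clone names left out, over replicates that share genotype, population and sex.

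**Figure D5:**
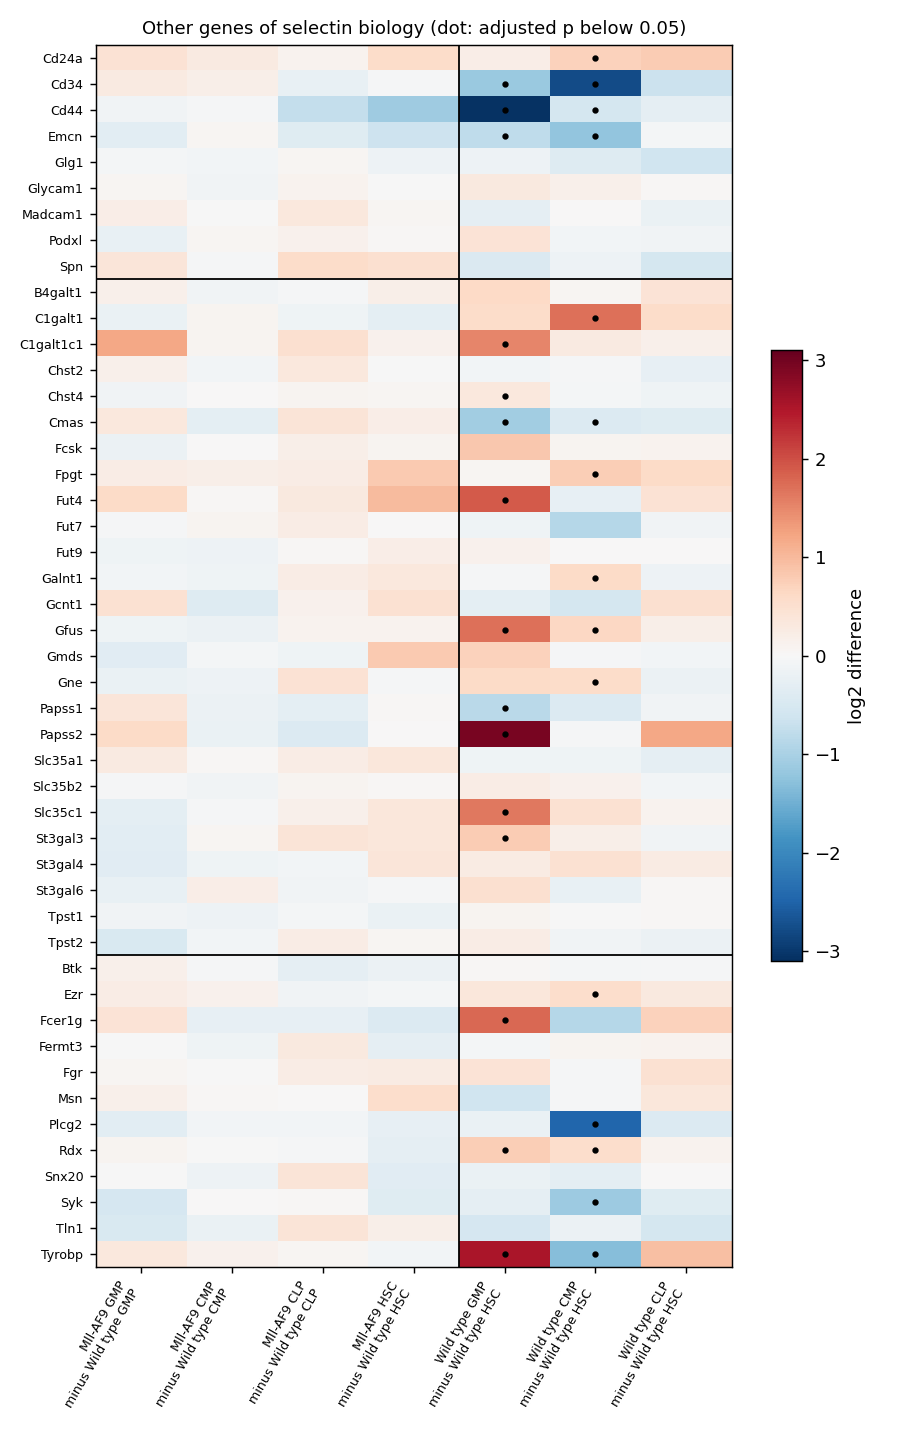
Log2 difference (colour) of each of 47 other genes of selectin biology, in rows by ligand scaffolds, glycan and sulphation enzymes and intracellular partners, for 4 comparisons of Mll-AF9 with wild type and 3 of wild-type populations with wild-type HSC. Dots mark adjusted p below 0.05, and none falls in the Mll-AF9 columns.

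Other genes that build, modify or read selectin ligands were tested next, 47 measured of 50 listed. They comprised 9 ligand scaffolds, 26 enzymes and transporters that glycosylate or sulphate ligands, and 12 of 14 intracellular partners of PSGL-1. None was called between Mll-AF9 and wild type in any population with limma, over 18193 genes, against 0.055% of all genes called in HSC, 0.269% in GMP, 0.423% in CMP and 0.346% in CLP. At an unadjusted p below 0.05 there were 6 in GMP (9.66% of all genes), 2 in CMP (6.74%), 5 in CLP (9.3%) and 5 in HSC (6.4%). The median difference of the list was 0.05 in HSC, −0.02 in GMP, −0.05 in CMP and 0.10 in CLP, beside 0.01, −0.02, 0.00 and 0.06 for all genes.

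Cd44, a hyaluronan receptor that carries E-selectin ligand glycans, had the smallest adjusted p of the list. It averaged 8.92 ± 0.26 in Mll-AF9 HSC and 10.02 ± 0.33 in wild-type HSC (SD, n = 5 each), a difference of −1.10 ± 0.21 with a limma adjusted p of 0.087. In CLP it averaged 9.01 in Mll-AF9 and 9.74 in wild type, a difference of −0.73 ± 0.21 (limma adjusted p = 0.213). With all 8 groups in 1 model Cd44 was called lower in both. C1galt1c1, the chaperone of the enzyme that starts core O-glycans, averaged 9.50 ± 0.34 (SD, n = 4) in Mll-AF9 GMP and 8.30 ± 0.90 (SD, n = 5) in wild-type GMP. That difference was 1.19 ± 0.36 (limma adjusted p = 0.272), and it was called without wild-type GMP replicate 1. Fut7, a fucosyltransferase that completes the selectin-binding glycan, averaged 5.32 in Mll-AF9 GMP and 5.36 in wild-type GMP. These genes were chosen for mention after their values were seen. In limma tests of whether the genotype difference differed between populations, 0 of the 47 genes were called in any of 6 pairs (smallest adjusted p 0.365). Per pair 2 to 4 had an unadjusted p below 0.05. The shares of all genes are not given for these tests, so the counts cannot be set against them.

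Between wild-type populations the share of these genes called lay near that of all genes. In wild-type GMP, 10 of the 47 rose and 5 fell relative to wild-type HSC, and 35.7% of all genes were called in that comparison. Of the 9 scaffolds 3 fell. Cd44 averaged 6.97 in wild-type GMP and 10.02 in wild-type HSC (−3.05 ± 0.24, limma adjusted p = 3.5e-07), and Cd34, a sialomucin of progenitors, 8.70 and 9.86 (−1.16 ± 0.31, adjusted p = 0.00868). Of the 26 enzymes and transporters 7 rose and 2 fell. Gfus, which makes GDP-fucose, averaged 9.76 in wild-type GMP and 8.05 in wild-type HSC (1.72 ± 0.19), and Slc35c1, which carries it into the Golgi, 7.14 and 5.51 (1.63 ± 0.31). Papss2, a maker of the sulphate donor, was at least 4.76-fold and the fucosyltransferase Fut4 at least 2.71-fold higher, their wild-type HSC means being below background. Among 12 intracellular partners 3 rose, the signalling adaptors Tyrobp (2.54 ± 0.36) and Fcer1g (1.78 ± 0.28) and the actin linker Rdx (0.76 ± 0.17). With the mean over all probe sets of a gene 23 of the 47 were called, and 36.1% of all genes.

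In wild-type CMP, 8 rose and 7 fell relative to wild-type HSC, against 26.6% of all genes. Among scaffolds Cd34 fell by 2.78 ± 0.31 and Cd44 by 0.56 ± 0.16, whereas Cd24a, a P-selectin ligand of myeloid cells, rose by 0.71 ± 0.14. Among enzymes C1galt1, the core O-glycan galactosyltransferase, rose by 1.72 ± 0.25, Fpgt of fucose salvage by 0.75 ± 0.21, Gfus by 0.65 ± 0.16 and Gne of sialic acid synthesis by 0.57 ± 0.18. Among partners the lipase Plcg2 fell by 2.45 ± 0.18, the kinase Syk by 1.13 ± 0.17 and Tyrobp by 1.31 ± 0.32, and Rdx rose by 0.55 ± 0.14. Over replicates without Y-linked signal 8 of the 47 were called, and 13.4% of all genes. In wild-type CLP, 0 of 47 were called relative to wild-type HSC, with 9 at an unadjusted p below 0.05 (0.044% and 6.87% of all genes). These 3 comparisons share the wild-type HSC samples.

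P-selectin is known from platelets and endothelium, so markers of both were read in the same samples. Of 16 megakaryocyte and platelet markers 14 were measured, and 0 were called between genotypes, with 1 lower in HSC, 4 lower in GMP, 2 higher in CMP, and 3 higher and 1 lower in CLP at an unadjusted p below 0.05, the level that 6.4%, 9.66%, 6.74% and 9.3% of all genes passed. Their mean level per replicate was 4.54 to 4.93 in Mll-AF9 GMP and 5.11 to 5.42 in wild-type GMP. It was 6.26 to 6.51 in Mll-AF9 CMP and 5.73 to 7.55 in wild-type CMP, 4.73 to 6.34 in Mll-AF9 CLP and 4.98 to 5.87 in wild-type CLP, and 5.38 to 5.93 in Mll-AF9 HSC and 5.29 to 6.88 in wild-type HSC. Of the defining markers, Pf4 averaged 7.49 in Mll-AF9 GMP and 7.97 in wild-type GMP, and 10.47 in Mll-AF9 CMP and 9.76 in wild-type CMP. Itga2b differed by 0.02 in HSC, −0.63 in GMP, 0.01 in CMP and 0.04 in CLP, and Gp9 by −0.08 in GMP, −0.14 in CMP and 0.32 in CLP. In CLP, Mmrn1, a platelet granule protein, averaged 5.54 in Mll-AF9 and 7.37 in wild type (−1.84 ± 0.41, limma adjusted p = 0.0624), and the integrin chain Itgb3 7.00 and 5.99 (1.01 ± 0.36, limma adjusted p = 0.362). Gp1bb, a chain of the von Willebrand factor receptor, differed by 0.79 ± 0.40 in CMP and 0.69 ± 0.54 in CLP. It averaged 4.62 in Mll-AF9 GMP and 5.17 in wild-type GMP, and 5.10 and 5.19 in HSC. Mmrn1, Itgb3 and Gp1bb were named outside the stated naming rule. The median difference of the 14 markers was −0.09 in HSC, −0.39 in GMP, −0.13 in CMP and 0.10 in CLP. The mean marker level was above background in every replicate, and its part in the Selp differences was not tested.

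Vwf, the adhesive protein stored beside P-selectin in endothelium and platelets, was picked after its values were seen. It averaged 9.11 ± 0.33 (SD, n = 4) in Mll-AF9 CMP and 8.04 ± 0.45 (SD, n = 5) in wild-type CMP, a difference of 1.08 ± 0.22 (limma adjusted p = 0.051). In CLP the difference was 1.18 ± 0.43 (adjusted p = 0.379), in HSC 0.59 ± 0.31 and in GMP −0.51 ± 0.27. Vwf correlated at 0.20 with Selp 1420558_at over the 43 replicates, and its correlation with the other Selp probe sets was not computed.

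Of 11 endothelium markers 0 were called between genotypes. At an unadjusted limma p below 0.05, 1 was higher and 1 lower in HSC, and 2 were lower in GMP. In CMP 3 were lower, and in CLP 0 passed. That level was passed by 6.4% of all genes in HSC, 9.66% in GMP, 6.74% in CMP and 9.3% in CLP. Cdh5, the junctional cadherin that defines endothelium, lay below background in all 8 group means, at 3.48 in Mll-AF9 GMP and 3.79 in wild-type GMP. Kdr averaged 4.88 in Mll-AF9 GMP and 5.19 in wild-type GMP, and Plvap 5.23 and 5.00. The mean of the list was 5.05 in Mll-AF9 GMP and 5.19 in wild-type GMP, 5.11 and 5.31 in CMP, 5.57 and 5.61 in CLP, and 5.66 and 5.63 in HSC.

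Markers of the populations themselves were read as well, and 0 were called between genotypes in any population. In CLP, 2 of 3 CLP markers and 3 of 4 HSC markers had an unadjusted limma p below 0.05, beside 9.3% of all genes. So did 1 of 3 genes listed as CMP markers (Klf1, Gata1 and Gfi1b) and 1 of 4 GMP markers. Flt3, a receptor of early lymphoid progenitors, averaged 9.11 in Mll-AF9 CLP and 10.05 in wild-type CLP (−0.94 ± 0.36), and Dntt, the lymphoid DNA polymerase, 11.67 and 12.30 (−0.63 ± 0.18). Of the stem cell markers, Procr differed by −0.96 ± 0.42, Fgd5 by −1.37 ± 0.38 and Slamf1 by 1.14 ± 0.28 (limma adjusted p = 0.0967), and the erythroid Klf1 by 0.76 ± 0.52. In CMP, 3 of 4 HSC markers passed that level (2 higher, 1 lower) and 1 of 4 GMP markers (lower), beside 6.74% of all genes. In HSC, 2 of 4 HSC markers did (1 higher, 1 lower) and 1 of 3 CLP markers (lower), beside 6.4%. In GMP, 1 marker each of the HSC, CLP and CMP lists did, all lower, beside 9.66%. The part of these markers in the Selp differences was not tested.

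RNA quality was read from the difference between 3′ and 5′ control probe sets. It ran from 3.68 to 4.93 in Mll-AF9 CLP and from 3.36 to 3.91 in wild-type CLP, so the Mll-AF9 replicates lay toward the upper end. With it as a covariate the CLP difference of Selp came to 1.29 ± 0.28 on 1420558_at, 0.43 ± 0.47 on 1440173_x_at and 0.60 ± 0.34 on 1449906_at.

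The genes beside Selp on chromosome 1 were tested to see whether the neighbourhood moved with it. The 5 measured genes on each side were taken, passing over Sele, which lies before Selp. Before it these were Mettl11b, Kifap3, Scyl3, BC055324 and Mettl18, and after it F5, Slc19a2, Ccdc181, Blzf1 and Nme7. Of the limma tests 0 of 40 were called, and 4 had an unadjusted p below 0.05, beside 6.4% to 9.66% of all genes per population. Those were Scyl3 in GMP (0.49 ± 0.22), Ccdc181 in CLP (0.48 ± 0.21), Mettl18 in HSC (0.85 ± 0.31) and the coagulation factor gene F5 in HSC (−0.78 ± 0.27).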

How the data were processed

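Each array gave the authors 1 deposited intensity for a probe set, made with RMA per the submitters' processing notes. No version of RMA was given in the sources used here. Cells were sorted into extraction buffer and the RNA amplified in a 2-cycle labelling, per the labels' protocols. The deposited intensity was on a linear scale, and log2 was taken first. Repeat runs of 8 CMP replicates were averaged. Of 45101 probe sets, 64 controls and 10092 with several genes or none were left out, and symbols of 34754 were updated through the GRCm38.p6 gene table. Each other gene was read from its brightest probe set. Background (4.46) is the 95th percentile of 112 olfactory, vomeronasal, taste receptor and keratin-associated genes, and 55.5% to 63.2% of genes per replicate exceeded it. For an at-least fold, dimmer replicates below that level were set to it.

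Groups were compared with limma 3.58.1 in R 4.3.3 (lmFit, eBayes with an intensity trend), with Benjamini-Hochberg adjustment over 18193 genes, called below 0.05. Differences of Selp, Sele and Selplg come from the same fit over 34945 probe sets, with limma's moderated SE and no p. Tables and figures were made in Python 3.11.15 with pandas 2.3.3 and numpy 2.4.6. The fit was tested on simulated data. Members, gene lists and naming rule were chosen with earlier results of these data known. Of each list up to 4 called genes of smallest p were named per comparison where the brighter group was above background, with defining markers and the 6 genes most like Selp and Selplg. Arrays have no depth, and their number limits the precision. No columns were left out (0 unused).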

Additional observations from a re-analysis of the deposited data

Results flagged for a closer look

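In 4 of 40 groups of values tested, where chance gives about 1 in 20, the replicate at one end lay far from the others relative to the group's range. Selp 1420558_at in wild-type HSC replicate 5 stood at 7.12, against 6.02 to 6.21 in the other wild-type HSC replicates, and lies within the Mll-AF9 HSC values. Selplg in Mll-AF9 GMP replicate 2 stood at 8.96, against 10.07 to 10.18 in the other Mll-AF9 GMP replicates. Sele in wild-type GMP replicate 1 stood at 2.69 and Sele in wild-type CMP replicate 1 at 3.19, both below background.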

How the results depend on the processing

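Every one of 246 alternative values of the Selp difference was positive. Those that moved by more than 1 pooled SD of the replicates were in CMP on 1449906_at, 2.07 in the first run alone and 1.32 in the second, and in CLP on 1420558_at, 0.93 with the Y-linked level as a covariate and 0.87 over replicates without Y-linked signal. Leaving out 1 replicate gave 1.58 to 1.85 in GMP, 1.57 to 1.81 in CMP, 1.52 to 1.75 in CLP and 0.20 to 0.70 in HSC on 1420558_at. On the other probe sets in GMP it gave 0.28 to 0.93 (1440173_x_at) and 0.30 to 0.77 (1449906_at). Within 1 SD, but by over 1.5 times, the covariate for the difference between 3′ and 5′ control probe sets gave 0.43 (1440173_x_at) and 0.60 (1449906_at) in CLP, the Y-linked covariate gave 0.37 in HSC and 0.39 in GMP on 1440173_x_at (0.37 and 0.40 over replicates without Y-linked signal), and a floor at background gave 0.42 and 0.40 there. Sele in HSC came to 0.00 with values raised to the background level. Selplg kept within 1 pooled SD in 82 of 82 alternatives, although in CLP it ran from 0.09 to 0.61, with the Y-linked covariate it came to −0.40 in GMP and −0.50 in HSC, and in GMP it came to 0.06 without Mll-AF9 GMP replicate 2.

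Of the other selectin genes, 0 to 2 were called in GMP when 1 replicate was left out (2 without wild-type GMP replicate 1, C1galt1c1 and Tyrobp, with 143 genes called of all) and 1 over replicates without Y-linked signal (C1galt1c1). With all 8 groups in 1 model 2 were called in CLP (Cd44 and Spn, with 271 genes of all), 1 in HSC (Cd44) and 1 between wild-type CLP and HSC (Cd24a). Between wild-type GMP and HSC 23 were called with the mean over probe sets, and between wild-type CMP and HSC 8 over replicates without Y-linked signal, a choice made after seeing the data. Otherwise these counts stayed within 1.5 times.

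Replicate numbers did not pair samples. In no comparison did every same-numbered pair correlate above 0.1 in deviations from group means (−0.33 to 0.19). With the replicate block the Selp differences on 1420558_at were 1.78, 1.79, 1.69 and 0.40 in GMP, CMP, CLP and HSC. The block gave 0 called selectin genes in each comparison of genotypes, beside 0.11% of all genes in GMP and 0.517% in CMP. It gave 17 between wild-type GMP and HSC (35.7% of all genes), 16 between wild-type CMP and HSC (25.6%) and 0 between wild-type CLP and HSC.

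Sex, CMP processing and the CLP source names limit these values. Signal near background limits the other Selp probe sets, and Sele cannot be read at all.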
